A study of Mus musculus with 6 samples.

Results

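The 10 genes described here are markers of the stem cells at the base of the colonic crypt and targets of WNT signalling: Lgr5, Ascl2, Axin2, Smoc2, Rnf43, Znrf3, Sox9, Ephb2, Cdca7 and Tnfrsf19. They were chosen by gene symbol, and all 10 were found among the 25339 genes of the deposited table. Messenger RNA was measured by RNA sequencing of mouse colon in 3 libraries from mice given lenvatinib, a drug that blocks several receptor tyrosine kinases, those for VEGF and FGF among them, and in 3 libraries from mice given the solvent DMSO. The labels number the libraries of each group as biological replicates and give no dose, duration, strain, age or sex, nor whether colitis, which the series title names, was induced. The material was colon tissue as a whole, so fewer cells of a type and less RNA per cell cannot be told apart.

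WNT ligands bind Frizzled receptors together with LRP co-receptors, which stabilises β-catenin and lets it activate genes with TCF and LEF transcription factors. R-spondins strengthen this signal through LGR receptors, and the signal is highest at the crypt base, where it maintains the stem cells that renew the epithelium. Many of its targets are negative regulators, so their transcripts are commonly read as a measure of pathway output.

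Depth was even, at 37996789 to 39623411 reads per library, recovered from the steps of the values. Libraries 2 and 3 of each group were nearly alike: the coefficient of variation beyond counting noise was 2.77% between lenvatinib 2 and 3 and 3.08% between DMSO 2 and 3, against 9.99 to 16.7% for the other pairs. Libraries 2 and 3 may therefore not stand for separate animals, and the p-values measure only the spread between these libraries. The male-specific transcript Ddx3y was listed at 0 in all lenvatinib libraries and in DMSO 2 and 3 and measured 6.54 FPKM in DMSO 1. The female-specific transcript Xist measured 0.00147 FPKM in DMSO 1, 15.9 FPKM in DMSO 2 and 3 and 18.7 to 19.8 FPKM in lenvatinib. DMSO 1 thus had the sex-linked transcripts of a male and the other libraries those of females. Sex was therefore not balanced between the groups, and its part in the members' values was not tested. Epithelial markers of the colon were abundant, with Cdx2, an intestinal transcription factor, at 208 to 216 FPKM in lenvatinib libraries and 210 to 235 FPKM in DMSO libraries. Levels are FPKM (fragments per kilobase of gene, scaled to the size of the library), so genes can be compared with each other. Differences are log2(FPKM + 1) in lenvatinib less that in DMSO.

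Transcripts of the stem cell and WNT target genes were at their lowest in lenvatinib 2 and lenvatinib 3, for 9 of the 10 genes, all but Tnfrsf19. Library lenvatinib 1 did not share this. It lay within the range of the DMSO libraries for 5 genes, above it for 2 (Ascl2 and Smoc2) and below it for 3 (Znrf3, Sox9 and Tnfrsf19). The share of all genes that were lowest in lenvatinib 2 and 3 was not counted. That order is therefore not shown to be particular to the members. By limma, with Benjamini-Hochberg adjustment over 11774 genes, 0 of the 9 tested members passed the threshold of 0.05 (adjusted p = 0.160 to 0.555), where 2.03% of all genes passed; at an unadjusted p below 0.05 there were 2, Sox9 and Cdca7, where 22.0% of all genes were. Without lenvatinib 1, 8 of 9 passed, all lower, where 38.0% of all genes passed and 28.2% passed as lower. This count therefore rests on that library, and the other lenvatinib libraries, 2 and 3, are the nearly alike pair. With DMSO 1 left out as well, an alternative chosen after seeing the data, 9 of 9 passed, where 62.2% of all genes did.

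**Figure D1:**
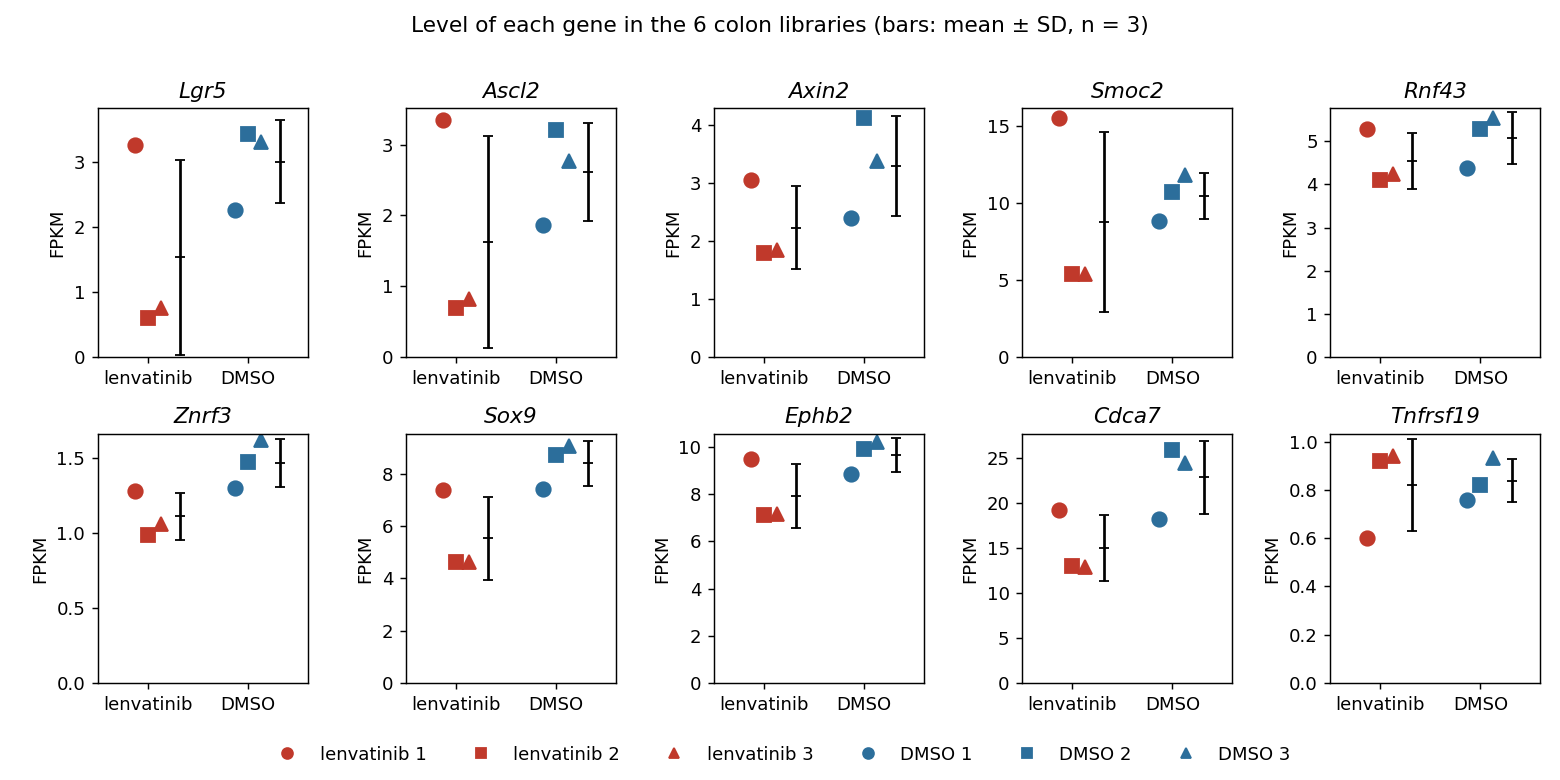
FPKM of the 10 genes in each library, with lenvatinib on the left and DMSO on the right of each panel; marker shapes give the replicate number and the bars the mean ± SD over 3 libraries. Lenvatinib 2 and 3 lie below the 4 other libraries for every gene except Tnfrsf19, while lenvatinib 1 lies among or near the DMSO libraries.

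Lgr5, Ascl2 and Smoc2, genes of stem cell identity, showed the widest separation between lenvatinib libraries among the 10. Lgr5 encodes the R-spondin receptor that marks crypt base columnar cells. It measured 3.27, 0.598 and 0.751 FPKM in lenvatinib 1 to 3, against 2.27, 3.44 and 3.31 FPKM in DMSO 1 to 3. Lenvatinib 2 and 3 were at 19.9% and 24.9% of the DMSO mean and lenvatinib 1 at 109%, so the groups overlapped through lenvatinib 1. The values rest on 110 reads in lenvatinib 2 and 137 in lenvatinib 3, with exact 95% Poisson intervals of 0.491 to 0.720 and 0.630 to 0.887 FPKM, and on 589 reads in lenvatinib 1 and 407 to 643 in DMSO. These intervals cover counting error only. The mean was 1.54 ± 1.50 FPKM in lenvatinib and 3.01 ± 0.640 FPKM in DMSO (SD, n = 3 each). The difference of −0.80 (95% interval −1.73 to 0.14, limma adjusted p = 0.272) was −1.25 without lenvatinib 1 (adjusted p = 0.00315) and −0.50 with libraries 2 and 3 of each group averaged.

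Ascl2, a basic helix-loop-helix transcription factor that controls intestinal stem cell fate, followed Lgr5 closely. It measured 3.35, 0.699 and 0.817 FPKM in lenvatinib 1 to 3, against 1.86, 3.21 and 2.77 FPKM in DMSO 1 to 3. Its highest and its lowest library were both lenvatinib libraries. Only 44 and 51 reads lay behind lenvatinib 2 and 3, yet the upper Poisson bounds of 0.938 and 1.07 FPKM stayed below the lower bound of 1.54 FPKM in DMSO 1. The difference was −0.59 (95% interval −1.51 to 0.34, adjusted p = 0.375), and −1.02 without lenvatinib 1 (adjusted p = 0.00820).

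Smoc2 encodes a secreted calcium-binding matrix protein enriched in Lgr5-positive cells and also made by stromal cells. It measured 15.5, 5.40 and 5.42 FPKM in lenvatinib 1 to 3, against 8.81, 10.7 and 11.8 FPKM in DMSO 1 to 3. Lenvatinib 1 stood at 148% of the DMSO mean and lenvatinib 2 and 3 at 51.7% and 52.0%. The difference of −0.37 had the widest uncertainty beside its size among the 9 tested members (95% interval −1.29 to 0.55, adjusted p = 0.555), and it was −0.83 without lenvatinib 1 (adjusted p = 0.00517). The 6 fibroblast markers summed to 360, 302 and 298 FPKM in lenvatinib 1 to 3, against 525, 499 and 497 FPKM in DMSO 1 to 3. Of the 6, 4 fell: Col1a1, Col1a2, Col3a1 and Lum, genes of collagens and a matrix proteoglycan (limma adjusted p = 8.24e-04 to 0.00289). Over all genes 2.03% passed in either direction. The fibroblast genes to be named were chosen after the values were seen. In these 4 lenvatinib 1 lay with lenvatinib 2 and 3, below all DMSO libraries, which was not the order of Smoc2. The other fibroblast markers, Dcn and Pdgfra, did not pass and lay nearer to that order. Dcn measured 154, 96.8 and 99.8 FPKM in lenvatinib 1 to 3, against 119, 99.3 and 99.5 FPKM in DMSO 1 to 3. Lenvatinib 1 was thus its highest library, as for Smoc2. Pdgfra was lowest in lenvatinib 2 and 3, as Smoc2 was, with lenvatinib 1 within the DMSO range. The part of stromal cells in the Smoc2 values was not tested.

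Tnfrsf19 (Troy), a receptor of the TNF receptor family found in Lgr5-positive cells, ran the other way. It measured 0.600, 0.922 and 0.940 FPKM in lenvatinib 1 to 3, against 0.760, 0.821 and 0.935 FPKM in DMSO 1 to 3. Here lenvatinib 1 was the lowest of the 6 libraries and lenvatinib 2 and 3 lay near DMSO 3. Its mean level was under 1 FPKM, so it was not among the genes tested; with no filter its difference was −0.02 (adjusted p = 0.943).

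Negative feedback regulators of the pathway spanned a smaller range. Axin2, a scaffold of the complex that degrades β-catenin and a widely used reporter of WNT output, measured 3.05, 1.79 and 1.84 FPKM in lenvatinib 1 to 3, against 2.40, 4.11 and 3.37 FPKM in DMSO 1 to 3. Lenvatinib 2 and 3 were at 54.2% and 55.9% of the DMSO mean, and the groups overlapped through lenvatinib 1 and DMSO 1. Its difference was −0.42 (95% interval −0.91 to 0.08, adjusted p = 0.279). Without lenvatinib 1 it was −0.59 (adjusted p = 0.0426).

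Rnf43 and Znrf3 encode related membrane ubiquitin ligases that remove Frizzled receptors from the cell surface. Rnf43 measured 5.27, 4.10 and 4.24 FPKM in lenvatinib 1 to 3, against 4.38, 5.28 and 5.53 FPKM in DMSO 1 to 3. It varied least of the tested members: lenvatinib 2 and 3 were at 80.9% and 83.8% of the DMSO mean, and it was the 1 tested member that did not pass without lenvatinib 1 (−0.13 with all libraries, 95% interval −0.41 to 0.15, adjusted p = 0.494; −0.23 and 0.115 without it). Znrf3 measured 1.28, 0.983 and 1.06 FPKM in lenvatinib 1 to 3, against 1.30, 1.47 and 1.62 FPKM in DMSO 1 to 3. Its groups did not overlap, though lenvatinib 1 and DMSO 1 were nearly equal. The difference of −0.23 did not pass (95% interval −0.45 to 0.00, adjusted p = 0.232).

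Relative to Rnf43, Lgr5 itself differed between libraries. Lgr5 stood at 62.0%, 14.6% and 17.7% of the Rnf43 level in lenvatinib 1 to 3, against 51.9%, 65.2% and 59.8% in DMSO 1 to 3. This ratio, chosen after the values were seen, uses values within a library and so does not depend on how libraries are scaled. Lgr5 ranked seventh of the 10 genes by level in lenvatinib 1 and was the lowest of them in lenvatinib 2 and 3, and it ranked seventh in each DMSO library. In lenvatinib 2 and 3 its order below Ascl2 lay within the counting intervals of both genes.

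Sox9, Ephb2 and Cdca7 are expressed more widely along the crypt. Sox9, a transcription factor of the crypt base and of Paneth cells, measured 7.36, 4.61 and 4.61 FPKM in lenvatinib 1 to 3, against 7.43, 8.72 and 9.04 FPKM in DMSO 1 to 3. Its groups did not overlap, with lenvatinib 1 just below DMSO 1. It had the smallest adjusted p of the members, 0.160, for a difference of −0.55 (95% interval −0.97 to −0.13), and −0.74 without lenvatinib 1 (adjusted p = 0.00304). Sox9 and Znrf3 were thus 2 of the 10 members whose groups did not overlap, both lower, where 17.5% of all tested genes were lower without overlap.

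Ephb2, a receptor that positions cells along the crypt through repulsion by ephrins, measured 9.47, 7.13 and 7.16 FPKM in lenvatinib 1 to 3, against 8.84, 9.90 and 10.2 FPKM in DMSO 1 to 3. Lenvatinib 1 lay between DMSO 1 and DMSO 2. The difference was −0.26 (95% interval −0.55 to 0.03, adjusted p = 0.253), and −0.38 without lenvatinib 1 (adjusted p = 0.0115). Cdca7, a cell cycle gene that acts in chromatin remodelling, was the most abundant member in all 6 libraries. It measured 19.3, 13.0 and 12.9 FPKM in lenvatinib 1 to 3, against 18.3, 25.9 and 24.5 FPKM in DMSO 1 to 3. The groups overlapped at lenvatinib 1 and DMSO 1, and the difference was −0.58 (95% interval −1.05 to −0.11, adjusted p = 0.172; −0.76 and 0.0125 without lenvatinib 1).

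Over the 9 tested members the median difference was −0.42, against −0.07 over all genes tested, and all 9 were below 0, where 63.9% of all genes tested were. With each library scaled to its epithelial markers the median was −0.32 for the members and 0.04 for all genes, and all 9 remained below 0, where 41.9% of all genes were. With that scaling Rnf43 was at −0.03 and Lgr5 at −0.71, and none passed.

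**Figure D2:**
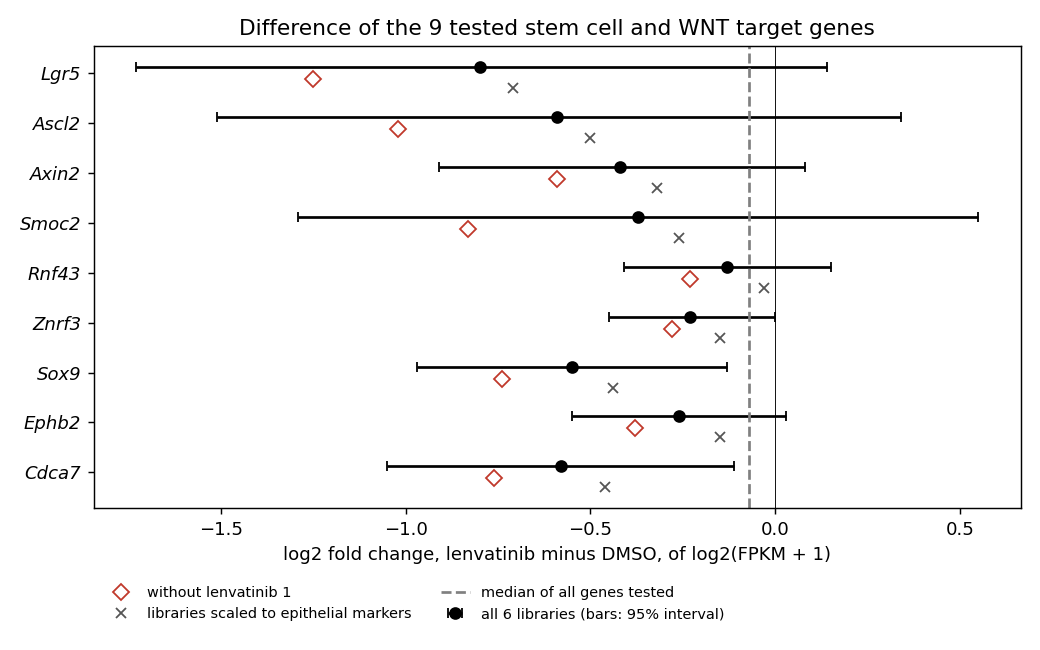
Log2 fold change (lenvatinib minus DMSO, of log2(FPKM + 1)) of the 9 tested genes: circles with 95% intervals use all 6 libraries, open diamonds leave out lenvatinib 1, and crosses scale libraries to epithelial markers. Every estimate is below 0, the intervals of Sox9 and Cdca7 exclude 0 before adjustment, and without lenvatinib 1 Lgr5 is at −1.25, against −0.80 with it, and Smoc2 at −0.83, against −0.37.

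The upstream sequences of members that differ in their behaviour were searched for the core letters bound by TCF and LEF factors, CTTTGAT and CTTTGAA, on both strands. RefSeq windows of 250 bases before a transcription start (build GRCm38.p6) were at hand for 6 of the 10 members, in 8 windows. A match lay in 1 of the 8, where 7.48% of all 32851 windows held one. The windows of Axin2 (chr11:108920099-108920348, plus strand) and Ascl2 (chr7:142969265-142969514, minus strand) are shown as those of the pathway reporter and the stem cell regulator, neither of which holds a match. The second window of Tnfrsf19 (chr14:61037988-61038237, minus strand) is shown because it holds the match, in capitals, which begins 202 bases before the start.
Axin2: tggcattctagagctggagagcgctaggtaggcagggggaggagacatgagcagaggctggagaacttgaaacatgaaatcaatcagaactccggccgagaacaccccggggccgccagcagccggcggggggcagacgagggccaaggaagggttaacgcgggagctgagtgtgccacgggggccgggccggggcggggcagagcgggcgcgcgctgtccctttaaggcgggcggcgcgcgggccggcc
Ascl2: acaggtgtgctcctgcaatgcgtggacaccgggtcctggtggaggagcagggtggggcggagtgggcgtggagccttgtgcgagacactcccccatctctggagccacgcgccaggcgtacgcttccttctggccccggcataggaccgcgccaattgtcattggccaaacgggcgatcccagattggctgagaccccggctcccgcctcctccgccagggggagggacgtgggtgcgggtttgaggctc
Tnfrsf19: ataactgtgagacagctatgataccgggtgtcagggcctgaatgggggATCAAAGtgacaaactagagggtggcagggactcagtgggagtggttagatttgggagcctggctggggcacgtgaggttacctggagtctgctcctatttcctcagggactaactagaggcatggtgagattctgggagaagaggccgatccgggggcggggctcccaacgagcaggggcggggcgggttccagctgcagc
These windows are GC-rich, at 69.2% for Axin2, 67.6% for Ascl2 and 59.2% for Tnfrsf19. A match is only a description of the letters, and WNT-responsive elements can lie far outside such windows.

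By Euclidean distance between log2(FPKM + 1) values, each centred on the gene's mean over the 6 libraries, the 5 named genes nearest to Lgr5 were Cdk1, Bin2, Lmnb1, Knstrn and Foxm1, at distances of 0.12 to 0.15. Cdk1, the kinase that drives entry into mitosis, measured 10.3, 3.33 and 3.34 FPKM in lenvatinib 1 to 3, against 7.96, 10.9 and 10.8 FPKM in DMSO 1 to 3. Foxm1, a transcription factor of the mitotic programme, measured 6.84, 1.95 and 2.02 FPKM in lenvatinib 1 to 3, against 5.44, 7.00 and 6.59 FPKM in DMSO 1 to 3. Lmnb1 encodes lamin B1 of the nuclear envelope, Knstrn a spindle protein, and Bin2 a membrane-shaping protein of blood cells. Among the members Ascl2 was nearest to Lgr5, at 0.28 and rank 69 of 11395 named genes, and Smoc2 was at 0.55, while Rnf43 and Znrf3 were at 1.21 and 1.22. Nearness on this scale also depends on how far a gene varies, and the 6 points include the nearly alike pairs.

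**Figure D3:**
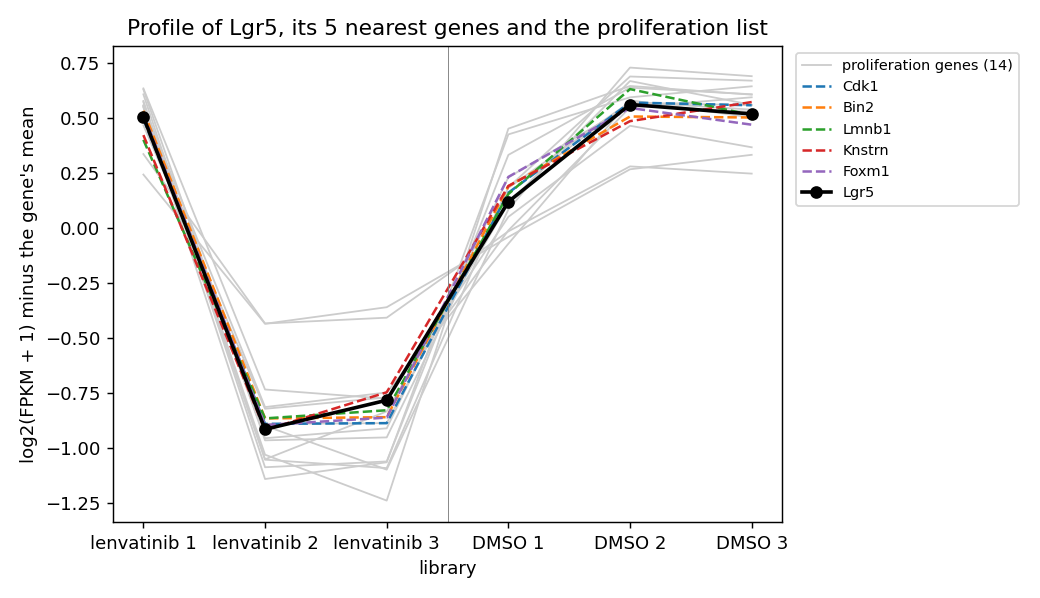
Log2(FPKM + 1) minus the gene's own mean, in each of the 6 libraries, for Lgr5 (black), its 5 nearest genes (dashed) and the 14 proliferation genes (grey); lines only link the values of a gene. All dip in lenvatinib 2 and 3, and lenvatinib 1 lies with DMSO 2 and 3 for Lgr5.

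Proliferation genes had this pattern as a list: the summed level of the 14 was 352, 138 and 139 FPKM in lenvatinib 1 to 3, against 269, 356 and 348 FPKM in DMSO 1 to 3. None of the 14 passed in limma (2 at an unadjusted p below 0.05), where 22.0% of all genes had such a p. All 14 had differences below 0, where 63.9% of all genes tested had, with a median of −0.87, against −0.07 over all genes. Without lenvatinib 1 all 14 passed as lower, where 28.2% of all genes did. Mki67, which encodes the proliferation antigen Ki-67, measured 21.0, 5.83 and 6.20 FPKM in lenvatinib 1 to 3, against 19.2, 21.7 and 22.5 FPKM in DMSO 1 to 3 (adjusted p = 0.223). Mcm5, a subunit of the replicative helicase, measured 18.2, 6.29 and 5.35 FPKM in lenvatinib 1 to 3, against 13.4, 21.5 and 20.9 FPKM in DMSO 1 to 3 (adjusted p = 0.244). The mitotic cyclin genes Ccnb1 and Ccna2 had differences of −1.13 and −1.05 (adjusted p = 0.226 and 0.237). Lgr5 stood at 15.5%, 10.3% and 12.1% of the Mki67 level in lenvatinib 1 to 3, against 11.8%, 15.9% and 14.7% in DMSO 1 to 3. The ratio of Cdca7 spread more widely: it stood at 91.7%, 224% and 207% of the Mki67 level in lenvatinib 1 to 3, against 95.5%, 120% and 109% in DMSO 1 to 3. Both ratios were chosen after the values were seen.

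Other genes of intestinal stem cells divided into 1 that rose, 2 that fell and 12 that did not pass, out of 15 tested, with a median of −0.31. Over all genes 2.03% passed in limma in either direction. At an unadjusted p below 0.05 there were 7 of the 15, where 22.0% of all genes were. Olfm4, a secreted glycoprotein that marks stem cells in mouse small intestine and is scarce in mouse colon, rose. It measured 3.11, 2.25 and 2.48 FPKM in lenvatinib 1 to 3, against 0.230, 0 and 0.0280 FPKM in DMSO 1 to 3 (1.73, SE 0.13, limma adjusted p = 0.00327). Its mean reached the filter of 1 FPKM only through the lenvatinib libraries. With no filter its difference was 1.73 (limma adjusted p = 0.00883). It was higher in every lenvatinib library, lenvatinib 1 included, unlike Lgr5. With DMSO values at or near 0, the size of the difference depends on the pseudocount: it was 4.06 with a pseudocount of 0.1 (adjusted p = 0.0138) and 5.85 with 0.01, where the call was lost (adjusted p = 0.0648). The call was also lost with libraries 2 and 3 averaged (1.74, adjusted p = 0.145, the highest over 18 alternatives). Markers of small intestine and Paneth cells moved with it: their summed level was 303, 395 and 369 FPKM in lenvatinib 1 to 3, against 8.82, 11.0 and 10.7 FPKM in DMSO 1 to 3. Of these markers 7 of 7 passed as higher, where 2.03% of all genes passed in either direction. Apoa1, Sis, Defa24, Mmp7 and Mptx2 had DMSO means of 0.0231 to 0.377 FPKM. They too reached the filter only through the lenvatinib libraries, and the list was chosen with earlier results of these data known. The 7 of 7 was therefore in part fixed in advance and is not a test against the share over all genes. The part of small intestinal RNA in the Olfm4 result, and in that of Sox9, was not tested.

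Cd24a, a surface glycoprotein that is high in crypt cells, fell. It measured 54.2, 61.6 and 58.5 FPKM in lenvatinib 1 to 3, against 97.8, 94.7 and 101 FPKM in DMSO 1 to 3 (−0.74, SE 0.07, adjusted p = 0.00565). Phlda1, a pleckstrin homology domain gene reported in epithelial stem cells, fell as well, with 12.7, 12.1 and 12.6 FPKM in lenvatinib 1 to 3, against 19.9, 18.2 and 20.1 FPKM in DMSO 1 to 3 (−0.60, SE 0.06, adjusted p = 0.0102). In both, the 3 lenvatinib libraries lay close together, which the members did not. Both calls were lost with the replicate number as a block (adjusted p = 0.0755 for Cd24a and 0.0768 for Phlda1), with libraries 2 and 3 averaged or as a random block, and without DMSO 3, and that of Phlda1 also without lenvatinib 2 or lenvatinib 3 (adjusted p up to 0.280 for Cd24a and 0.366 for Phlda1 over 19 alternatives). Soat1, a cholesterol esterifying enzyme of the published stem cell signature, had a difference of −0.56 and missed the threshold (adjusted p = 0.0545).

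Of the WNT receptors and co-receptors 0 of 12 tested passed in limma, with a median of −0.00, 6 above 0 and 6 below. At an unadjusted p below 0.05 there were 3, where 22.0% of all genes were. Lgr4, the more widely expressed paralogue of Lgr5, measured 39.5, 39.0 and 38.0 FPKM in lenvatinib 1 to 3, against 34.4, 29.4 and 28.7 FPKM in DMSO 1 to 3. Its groups did not overlap and its difference of 0.33 was opposite in sign to that of Lgr5 (adjusted p = 0.107). Lgr6, the third paralogue, was near 0 in all libraries, at 0.00367, 0 and 0.00362 FPKM in lenvatinib 1 to 3 and 0.00739, 0.0142 and 0.00360 FPKM in DMSO 1 to 3. The Frizzled receptor genes Fzd2, Fzd7 and Fzd8 had differences of −0.27, −0.36 and −0.16 (adjusted p = 0.174, 0.133 and 0.232).

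Among signal transducers 0 of 17 tested passed in limma, with a median of −0.05, and 1 had an unadjusted p below 0.05, where 22.0% of all genes had. Tcf7, which encodes the factor TCF1 and is also expressed by T cells, measured 1.74, 0.847 and 0.779 FPKM in lenvatinib 1 to 3, against 1.62, 1.74 and 1.81 FPKM in DMSO 1 to 3 (adjusted p = 0.251). The summed T cell markers had a like order, at 62.2, 12.4 and 13.8 FPKM in lenvatinib 1 to 3, against 31.7, 49.7 and 48.2 FPKM in DMSO 1 to 3. Their part in the Tcf7 values was not tested. The TCF family repressor Tcf7l1, the kinase gene Csnk1a1 and the β-catenin co-activator Pygo2 had differences of 0.28, −0.12 and −0.27 (adjusted p = 0.235, 0.241 and 0.192).

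Of 8 tested further WNT targets none passed in limma, with 4 above and 4 below 0 and a median of 0.01. An unadjusted p below 0.05 was found for 2 of the 8, where 22.0% of all genes had such a p. Cd44, the hyaluronan receptor found on crypt cells and on leukocytes, had the largest difference of these. It measured 17.4, 7.44 and 7.69 FPKM in lenvatinib 1 to 3, against 20.5, 23.8 and 24.6 FPKM in DMSO 1 to 3 (−1.11, adjusted p = 0.125). Ephb3, the partner of Ephb2 in crypt positioning, measured 6.62, 2.94 and 3.08 FPKM in lenvatinib 1 to 3, against 5.93, 7.29 and 7.19 FPKM in DMSO 1 to 3 (−0.65, adjusted p = 0.223). Ccnd1, the G1 cyclin, and Nkd2, a feedback inhibitor, had differences of −0.62 and 0.18 (adjusted p = 0.286 and 0.340).

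Notch and lineage genes lay below 0 in 11 of 11 tested, where 63.9% of all genes tested did, with a median of −0.30. None of the 11 passed in limma, and 3 had an unadjusted p below 0.05, where 22.0% of all genes had. Atoh1, which commits cells to the secretory lineage, measured 17.0, 21.2 and 20.1 FPKM in lenvatinib 1 to 3, against 29.9, 23.3 and 22.5 FPKM in DMSO 1 to 3 (adjusted p = 0.199). Spdef, which acts downstream of Atoh1 in goblet cells, Hes1, the main Notch effector, and the receptor gene Notch2 had differences of −0.50, −0.27 and −0.30 (adjusted p = 0.150, 0.198 and 0.253). Of 7 tested genes of regenerating epithelium 1 fell, where 2.03% of all genes passed in either direction. This was Ccn1, a secreted YAP target, with 5.98, 7.84 and 7.83 FPKM in lenvatinib 1 to 3, against 12.4, 11.5 and 11.6 FPKM in DMSO 1 to 3 (−0.65, adjusted p = 0.0437). Of 19 alternatives 11 ended this call, including those without lenvatinib 2, lenvatinib 3 or any 1 DMSO library (adjusted p up to 0.544). Ccn2, a related YAP target, had a difference of the opposite sign, 0.51 (adjusted p = 0.147), Clu one of −0.47 and the growth factor gene Ereg one of 0.21 (adjusted p = 0.474 and 0.487).

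**Figure D4:**
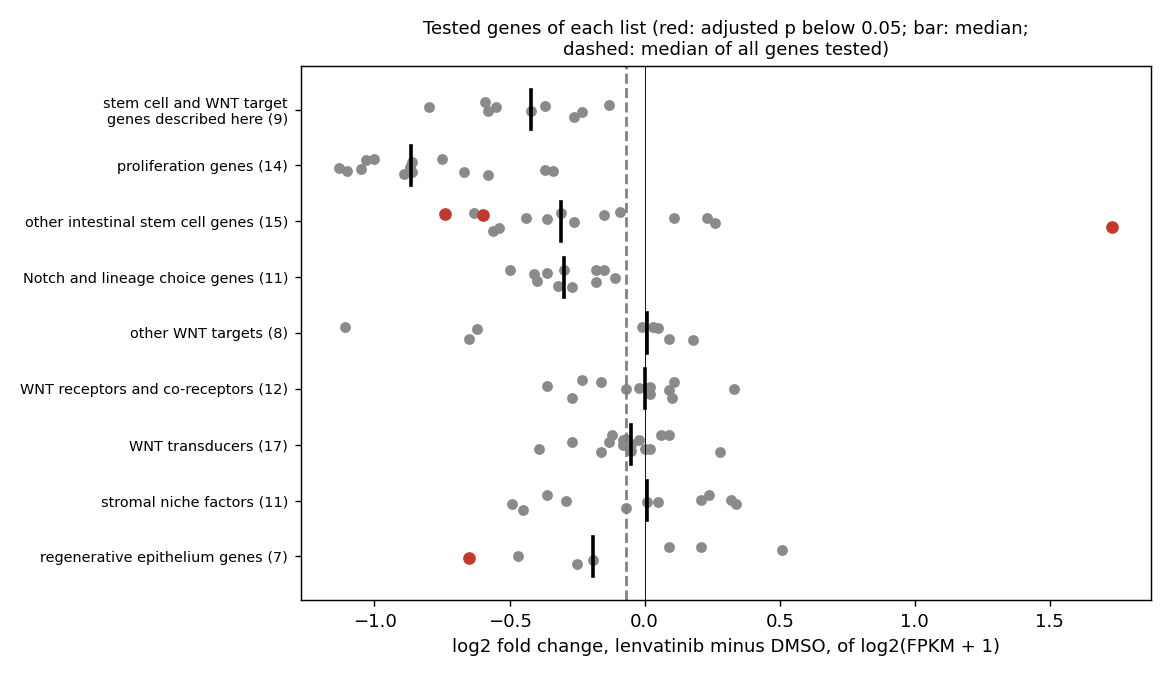
Log2 fold change (lenvatinib minus DMSO, of log2(FPKM + 1)) of each tested gene by list, with the number tested in parentheses; red points passed an adjusted p of 0.05, black bars are list medians and the dashed line is the median of all genes, −0.07. The medians were −0.42 for the members and −0.87 for proliferation genes, and between −0.05 and 0.01 for receptors, transducers and further targets; Olfm4 is the red point far to the right.

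The stromal factors that support the niche did not pass in limma, 0 of 11 tested, where 2.03% of all genes passed. At an unadjusted p below 0.05 there were 6 of the 11, where 22.0% of all genes were. Their differences went both ways, 6 above 0 and 5 below, with a median of 0.01. Wnt4 and Wnt5a, ligands of the stroma and epithelium, and Bmp4, a differentiation signal, had differences of −0.45, −0.36 and −0.49, and Bmp2 one of 0.24 (adjusted p = 0.0939, 0.107, 0.123 and 0.0880).

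Markers of other cell types were set beside the members because the tissue was mixed. Summed epithelial markers were 5697, 5848 and 5766 FPKM in lenvatinib 1 to 3, against 6584, 6369 and 6171 FPKM in DMSO 1 to 3, a far narrower range than that of Lgr5. Markers of surface colonocytes were 8881, 12209 and 12162 FPKM in lenvatinib 1 to 3, against 9220, 10708 and 11016 FPKM in DMSO 1 to 3. Most of this sum was Car1, a carbonic anhydrase, at 7590, 10357 and 10327 FPKM in lenvatinib 1 to 3, against 7823, 9238 and 9567 FPKM in DMSO 1 to 3. Car4, Slc26a3 and Aqp8 were also highest in lenvatinib 2 and 3. Car4 measured 68.9, 146 and 147 FPKM in lenvatinib 1 to 3, against 69.8, 78.6 and 81.1 FPKM in DMSO 1 to 3. Slc26a3 measured 205, 351 and 350 FPKM in lenvatinib 1 to 3, against 195, 165 and 165 FPKM in DMSO 1 to 3. Aqp8 measured 301, 691 and 699 FPKM in lenvatinib 1 to 3, against 343, 439 and 428 FPKM in DMSO 1 to 3. In limma the adjusted p was 0.762 for Car1, 0.293 for Car4, 0.144 for Slc26a3 and 0.490 for Aqp8. Without lenvatinib 1 it was 9.93e-04 for Car4, 0.00121 for Slc26a3 and 0.00556 for Aqp8, where 38.0% of all genes passed. Car1 did not pass without lenvatinib 1 either (limma adjusted p = 0.116). Krt20, a keratin of the same list, had another order and was lowest in lenvatinib 2 and 3, at 717, 664 and 639 FPKM in lenvatinib 1 to 3, against 790, 788 and 775 FPKM in DMSO 1 to 3 (adjusted p = 0.136, and 0.00898 without lenvatinib 1). Goblet cell markers were 1710, 2136 and 2096 FPKM in lenvatinib 1 to 3, against 5781, 2573 and 2675 FPKM in DMSO 1 to 3. B cell markers were 38.3, 7.23 and 8.73 FPKM in lenvatinib 1 to 3, against 77.5, 61.4 and 65.1 FPKM in DMSO 1 to 3, with lenvatinib 2 and 3 again lowest. Fibroblast markers were 298 to 360 FPKM in lenvatinib and 497 to 525 FPKM in DMSO, smooth muscle markers 1048 to 1170 and 958 to 1039 FPKM, endothelial markers 22.7 to 32.1 and 28.8 to 31.4 FPKM, and enteric glia markers 3.02 to 3.64 and 1.85 to 2.42 FPKM. No marker of these lists was at 0 in all 6 libraries. The part of these cell types in the members' values was not tested.

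**Figure D5:**
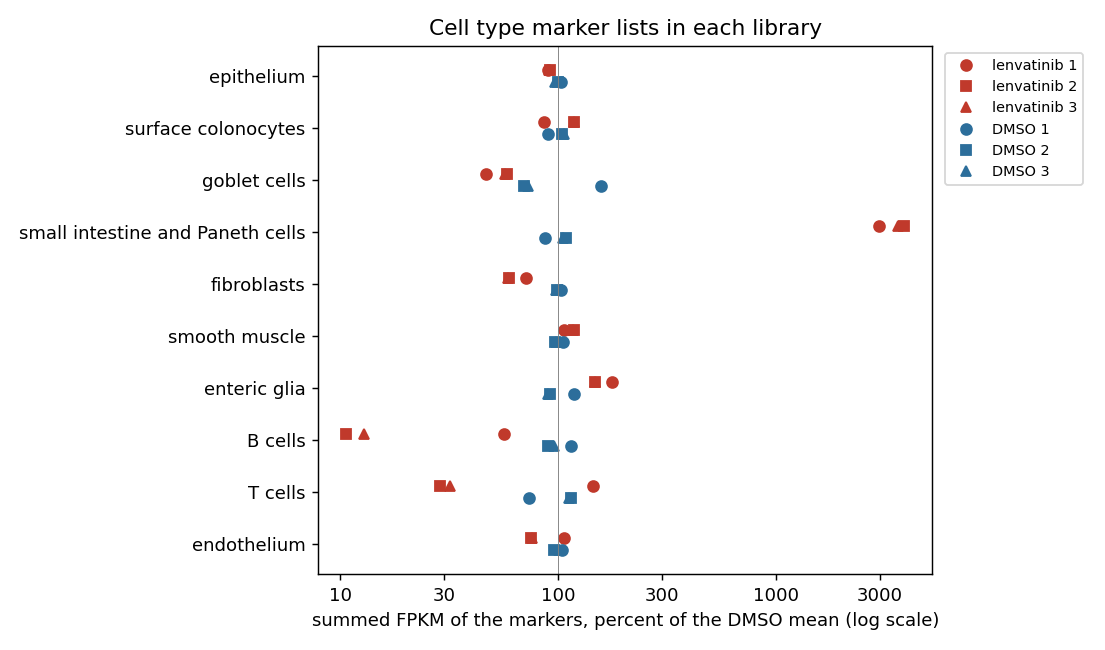
Summed FPKM of each marker list in every library, as a percent of the DMSO mean, on a log scale; red lenvatinib points are drawn above blue DMSO points. Epithelial and smooth muscle lists stay near 100%, lenvatinib 2 and 3 stand apart from lenvatinib 1 in the B cell and T cell lists, and small intestine and Paneth cell markers are far to the right in all 3 lenvatinib libraries.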

How the data were processed

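Colon RNA of 3 lenvatinib and 3 DMSO mouse libraries was sequenced. TRIzol extraction and VAHTS Universal V10 libraries are given per the labels' protocols, and HTSeq and the build GRCm39 per the submitters' processing notes. Other upstream settings, strand included, were not given in the sources used here, so antisense or overlapping genes cannot be told apart. The deposited values are FPKM, computed by the authors.

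Whole reads were recovered from the FPKM steps for 99.8% of genes above 0 (tolerance 0.01 reads), and used for depth, read counts and counting intervals, not for tests between groups. The 11774 genes whose mean reached 1 FPKM were compared on log2(FPKM + 1), pseudocount 1, with limma 3.58.1 in R 4.3.3 (trended, robust prior; two-sided; Benjamini-Hochberg adjustment; threshold 0.05), which was tested on simulated data. This scale understates changes of low genes. The simulated libraries were independent, unlike the nearly alike pairs here, so the simulation does not cover error rates with such pairs. Deviations from the group mean did not correlate positively between libraries of the same number (−0.20, −0.16 and −0.15). With libraries 2 and 3 nearly alike, this check cannot settle whether the numbers pair the libraries. Alternatives changed pseudocount, filter, scaling, prior, block and libraries.

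The members and lists were chosen with earlier results of these data known. Beside the members, named genes are up to 4 per list by unadjusted p, Olfm4, Lgr4, Lgr6 and the 5 genes nearest Lgr5. Cdx2, Ddx3y, Xist, the surface colonocyte and fibroblast genes, and the ratios between genes, were chosen after values were seen.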

Additional observations from a re-analysis of the deposited data

How the results depend on the processing

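Of 18 other settings, 17 left 0 members past the threshold; the exception, without lenvatinib 1, gave 8, so the count ranged from 0 to 8 when a library was left out. With libraries 2 and 3 only, an alternative chosen after seeing the data, 9 passed; these are the nearly alike pairs. The 9 tested members kept their sign in all 166 values computed. On the pseudocount, Lgr5 was −1.28 at 0.1 and −1.37 at 0.01, still not passing; with libraries 2 and 3 averaged Smoc2 was −0.09.

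Over all genes 239 passed (129 higher, 110 lower); 140 passed with no filter, 415 when scaled to epithelial markers (328 higher, 87 lower), 46 with libraries 2 and 3 as a random block, 4 with them averaged, and 45 to 4479 with a library left out, the highest without lenvatinib 1 and the lowest without DMSO 3. With lenvatinib 2, lenvatinib 3 or DMSO 2 left out, 58, 57 and 50 passed. With libraries 2 and 3 only, 7319 passed. With the replicate number as a block, 29 genes and 0 members passed. Whether the numbers pair the libraries is not known. The cause of these shifts was not tested. Ascl2, with 44 reads in lenvatinib 2, is the member most limited by depth.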
